A study of Mus musculus with 6 samples.

Results

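Epcam and A930009A15Rik were 2 protein-coding genes with low read counts in the forebrain of 9-day-old mice, and both were lower when Parp1 had been deleted in Pdgfra-expressing cells. They are 2 of the 35275 gene identifiers in the deposited tables, and both matched an Ensembl identifier by their GENCODE M21 name. They were chosen because they were among the genes lower in the knockout, so their difference between the groups is described here and not tested. Epcam had 24 reads in the 3 knockout libraries together and 117 in the 3 control libraries. A930009A15Rik had 42 reads in the knockout libraries and 139 in the controls.

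The study sequenced messenger RNA of 6 C57BL/6 mice on postnatal day 9. In the conditional knockout (cKO) there were 3 mice of genotype Pdgfra-CreER:Parp1fl/fl, and among the controls 3 littermates with the same floxed Parp1 alleles and no Cre. All 6 mice, controls included, were given tamoxifen by intraperitoneal injection on postnatal days 1, 2 and 3. CreER acts only in cells that express Pdgfra when tamoxifen is present. In brain these are chiefly oligodendrocyte precursor cells, and some fibroblasts of the meninges and vessels express Pdgfra too. Because whole forebrain was measured, fewer cells of a type and less RNA per cell cannot be told apart.

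EpCAM is a transmembrane glycoprotein of epithelial cells. It supports adhesion between cells, binds the tight-junction protein claudin-7, and is cut by the ADAM and BACE sheddases and then by gamma-secretase, which frees its short intracellular tail. A930009A15Rik is known by a clone name and is annotated as protein coding. Sox10, Gpr17 and Myrf, with which both genes were compared, belong to the oligodendrocyte lineage. Sox10 and Myrf are transcription factors needed for oligodendrocyte differentiation and myelin gene expression, and Gpr17 is a receptor that committed precursors express for a short time.

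Epcam (ENSMUSG00000045394) lies on the plus strand of chromosome 17, from 87635979 to 87651129 in mm10. GENCODE M21 gives it 5 transcripts on 10 merged exons, and no other annotated gene overlaps it. A930009A15Rik (ENSMUSG00000092210) lies on the plus strand of chromosome 10, from 115569986 to 115582448, with 1 transcript of 5 exons. All of A930009A15Rik falls within Lgr5, which runs on the opposite strand from 115450311 to 115587780, and the exons of the 2 genes share 0 bp. Lgr5 encodes a receptor for R-spondins and marks stem cells of several epithelia.

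The stretches just before the 2 start sites are shown because both genes were lower together. They are RefSeq's sequences on GRCm38.p6, the assembly of mm10, on the plus strand, 250 bases for Epcam (chr17:87635729-87635978) and 219 bases for A930009A15Rik (chr10:115569767-115569985), in lower case throughout since no searched motif was found.
Epcam: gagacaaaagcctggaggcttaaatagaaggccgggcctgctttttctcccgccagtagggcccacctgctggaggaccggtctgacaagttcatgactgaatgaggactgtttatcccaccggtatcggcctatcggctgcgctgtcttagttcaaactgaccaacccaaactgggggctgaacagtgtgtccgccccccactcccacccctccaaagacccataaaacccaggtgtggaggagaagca
A930009A15Rik: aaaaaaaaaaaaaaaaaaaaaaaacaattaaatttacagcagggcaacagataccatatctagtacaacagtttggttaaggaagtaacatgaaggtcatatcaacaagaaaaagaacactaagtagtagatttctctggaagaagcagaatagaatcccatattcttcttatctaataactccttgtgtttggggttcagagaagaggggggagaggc
Both strands of the 250 bases before each RefSeq start were searched for the SOX core letters ACAAAG and ACAATG, the E-box letters CAGCTG and CATATG, and the TATA box letters TATAAA. RefSeq starts A930009A15Rik 31 bases after GENCODE does. Neither window held any of these 5 exact strings. Other forms of the motifs were not searched, and the Epcam stretch holds CACCTG and CAGGTG, which are further forms of the E-box. Among 32851 upstream windows of the same length, 16.5% held ACAAAG, 10.7% ACAATG, 13.0% CAGCTG, 3.46% CATATG and 12.4% TATAAA. The windows differed in base composition, with 56.4% G and C before Epcam and 38.0% before A930009A15Rik. Of all windows, 62.4% had a lower share of G and C than that of Epcam and 8.47% a lower share than that of A930009A15Rik.

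Total counts per library ran from 19934003 to 29310193 in the cKO group and from 17262042 to 22118915 in the controls. Parp1 itself, the targeted gene, averaged 79.8 ± 0.843 CPM (counts scaled to the library total, TMM-normalised) in the cKO mice and 91.2 ± 5.84 CPM in the controls (SD, n = 3 each), and did not pass the test (edgeR adjusted p = 0.572). Control replicate 3 stood apart. The summed level of 12 striatal genes was 490.4 CPM there, against 1195 to 1380 CPM in the cKO libraries and 1203 and 1489 CPM in the other controls. That of 12 thalamic genes was 1059 CPM there, against 587 to 654 CPM in the cKO libraries and 589.8 and 595.5 CPM in the other controls. Control replicate 1 held 1123 counts of the Y-linked gene Ddx3y and 3 of Xist, whereas each other library held at most 1 count of Ddx3y. Sex is not labelled per mouse.

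Epcam was detected in every library and was lower in all 3 cKO forebrains than in any control. It had 3, 14 and 7 counts in cKO replicates 1, 2 and 3, against 26, 40 and 51 counts in control replicates 1, 2 and 3. Scaled to depth, these were 0.148, 0.565 and 0.244 CPM in the cKO libraries and 1.501, 1.84 and 2.33 CPM in the controls. The groups did not overlap. The nearest pair was cKO replicate 2, with an exact 95% Poisson interval of 0.309 to 0.949 CPM, and control replicate 1, with 0.981 to 2.20 CPM. These intervals cover counting error only. Mean and SD over 3 mice were 0.319 ± 0.219 CPM for cKO and 1.89 ± 0.415 CPM for control.

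The cKO libraries differed among themselves in Epcam by more than counting gives. Their coefficient of variation was 68.6%, where Poisson counting at the mean count gives 35.4%. In the controls it was 22.0%, where counting gives 16.0%. The variance was 3.47 times the counting expectation in cKO and 1.77 times in controls. The pooled counts put Epcam 5.9-fold lower in cKO, with an interval of 3.78 to 9.58 that leaves out differences between mice. The edgeR log2 fold change, -2.53, had a 95% confidence interval of -3.45 to -1.61 and was the second lowest of 16938 tested genes. Epcam ranked 29 among them by that value over its standard error, and 37 by p in either direction. The log2 fold change of Epcam moved to -3.20 without cKO replicate 2 and to -2.24 without cKO replicate 1.

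A930009A15Rik was lower in cKO to a similar degree and with far less scatter. It had 14, 13 and 15 counts in cKO replicates 1, 2 and 3, against 37, 51 and 51 counts in control replicates 1, 2 and 3. The corresponding levels were 0.691, 0.525 and 0.522 CPM in the cKO libraries and 2.14, 2.35 and 2.33 CPM in the controls. The groups lay well apart, since the highest upper bound in cKO was 1.16 CPM and the lowest lower bound in controls was 1.504 CPM. Mean and SD over 3 mice were 0.579 ± 0.0966 CPM for cKO and 2.27 ± 0.116 CPM for control. The variance was 0.362 times the counting expectation in cKO and 0.11 times in controls, so at this depth no difference between mice of 1 group was detectable.

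By pooled counts A930009A15Rik was 4.005-fold lower in cKO, with a counting interval of 2.82 to 5.8. Its edgeR log2 fold change, -1.98, had a 95% confidence interval of -2.61 to -1.35. Leaving out each library in turn kept this value between -2.11 and -1.91. The interval of Epcam holds the value of A930009A15Rik, and the difference between the 2 falls was not tested.

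**Figure D1:**
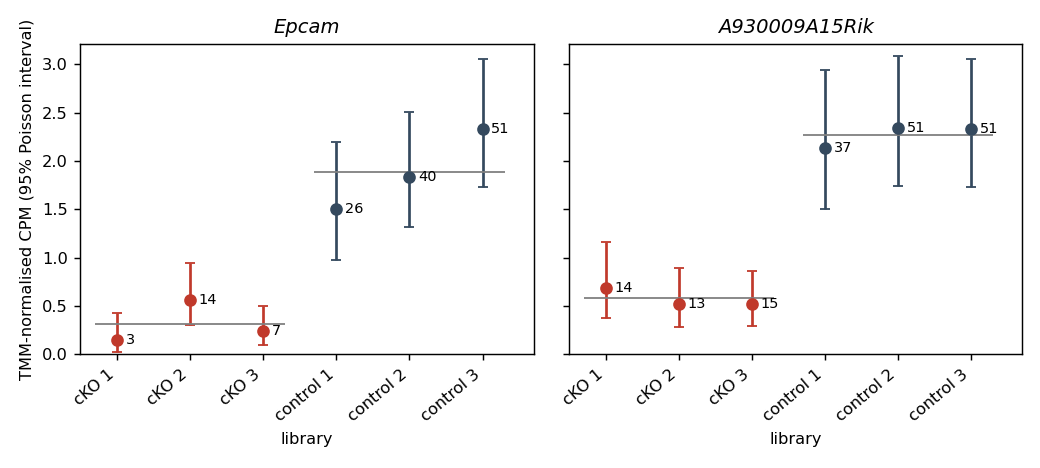
TMM-normalised CPM of Epcam (left) and A930009A15Rik (right) in each library, with exact 95% Poisson intervals as bars, the read count beside each point, and the mean of each group as a grey line. The 3 cKO libraries lie below the 3 controls for both genes, and Epcam in cKO ranges from 3 to 14 counts.

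The values that chose the 2 genes were their adjusted p in this contrast, 0.025 for Epcam and 0.00999 for A930009A15Rik (edgeR, adjusted over all tested genes by Benjamini-Hochberg). They describe the choice and support nothing beyond it. Of all tested genes 0.207% were called lower at an adjusted p under 0.05, and 5.86% had groups that did not overlap with cKO lower. Epcam lost its call when cKO replicate 1 or 3 or control replicate 1 or 2 was left out, with adjusted p of 0.128, 0.119, 0.0714 and 0.0717. A930009A15Rik lost it without cKO replicate 2 or 3, with adjusted p of 0.0832 and 0.0526.

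Both genes stood near the lower end of what the libraries could measure. Epcam had a higher mean CPM than 11.2% of the tested genes, and A930009A15Rik than 14.2%. Of the 2400 tested genes with a mean no higher than that of A930009A15Rik (1.42 CPM), these 2 were the only ones called in either direction. The half-width of the 95% interval of a log2 fold change had a median of 0.862 among those 2400 genes and of 0.247 among all tested genes, so a fall had to be large to be called at such levels. The 35 genes called lower had a median level of 15.1 CPM, and the next one above A930009A15Rik was 1700047M11Rik at 1.51 CPM.

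**Figure D2:**
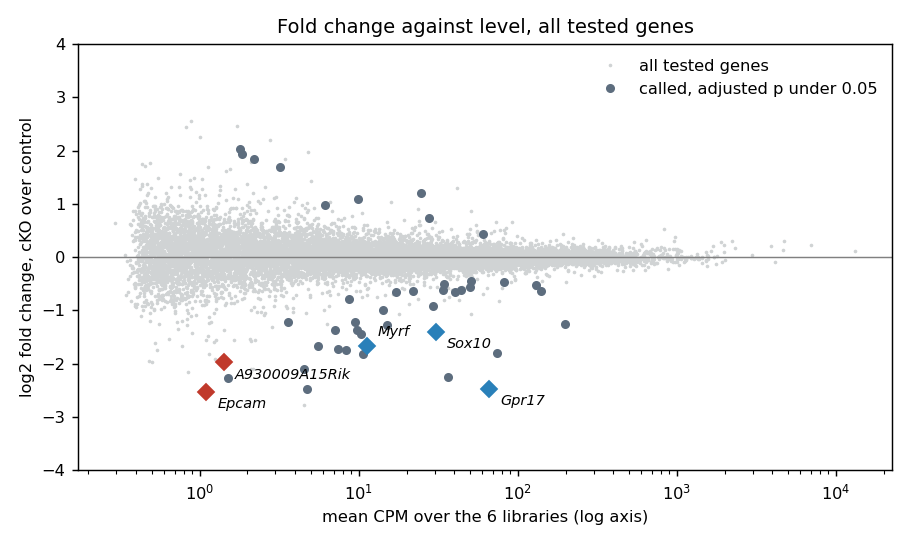
Log2 fold change of cKO over control against mean CPM over the 6 libraries (log axis) for the 16938 tested genes, with called genes in dark grey, Epcam and A930009A15Rik as red diamonds and Sox10, Gpr17 and Myrf as blue diamonds. Epcam and A930009A15Rik are the called genes farthest to the left, and 1 tested gene lies outside the plotted range.

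Per length, A930009A15Rik was the more abundant of the 2. In the deposited FPKM (fragments per kilobase, scaled to the library total) it was at 0.578 ± 0.107 in cKO and 2.27 ± 0.115 in controls (SD, 3 mice per group). Epcam was at 0.155 ± 0.106 FPKM in cKO and 0.926 ± 0.196 FPKM in controls. The FPKM values divide by 1001 bp for A930009A15Rik, its annotated transcript, and by 2040 bp for Epcam, its longest annotated transcript. On this scale A930009A15Rik lay nearest to Myrf, which was at 0.946 ± 0.042 FPKM in cKO and 3.02 ± 0.425 FPKM in controls. Sox10 was at 6.18 ± 0.177 FPKM in cKO and 16.5 ± 1.07 FPKM in controls. Gpr17 was at 3.89 ± 0.799 FPKM in cKO and 21.6 ± 3.87 FPKM in controls.

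The 3 oligodendrocyte lineage genes set beside them were lower in the same libraries. Gpr17 had 20.8, 23.9 and 16.0 CPM in cKO replicates 1, 2 and 3, against 103, 134 and 99.7 CPM in control replicates 1, 2 and 3. Sox10 had 16.8, 17.1 and 16.5 CPM in the cKO libraries, against 47.6, 41.7 and 44.8 CPM in the controls. Myrf had 5.08, 5.33 and 5.74 CPM in the cKO libraries, against 19.1, 14.3 and 17.9 CPM in the controls. None of the 3 genes had overlapping groups, and 5.86% of all tested genes likewise had groups that did not overlap with cKO lower. Sox10, Gpr17 and Myrf were chosen with their fall known. Their log2 fold changes were -2.48 for Gpr17 (95% confidence interval -2.92 to -2.03), -1.41 for Sox10 (-1.59 to -1.23) and -1.66 for Myrf (-1.96 to -1.36). Gpr17 shares 188 bp of exon with Lims2, which runs the other way, so its count is less certain.

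Epcam was also set against these genes within each library. Per 100 reads of Gpr17 there were 0.711, 2.36 and 1.52 reads of Epcam in cKO replicates 1, 2 and 3, against 1.46, 1.37 and 2.33 in the controls, and the groups overlapped. Per 100 reads of Sox10 there were 1.89 ± 1.26 reads of Epcam in cKO and 4.25 ± 1.03 in controls, and cKO replicate 2 at 3.3 lay above control replicate 1 at 3.15. Per 100 reads of A930009A15Rik there were 58.6 ± 44.4 reads of Epcam in cKO, from 21.4 to 108, against 82.9 ± 15.4 in controls. This ratio rests on 3 to 14 reads of Epcam in each cKO library, and whether it differs among the mice was not tested.

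A930009A15Rik gave fewer reads per read of Sox10 in every cKO library than in any control. Per 100 reads of Sox10 there were 4.12, 3.07 and 3.16 reads of A930009A15Rik in cKO replicates 1, 2 and 3, against 4.48, 5.63 and 5.2 in the controls, without overlap. Per 100 reads of Gpr17 there were 2.93 ± 0.636 in cKO and 2.05 ± 0.295 in controls, and the groups overlapped. Per 100 reads of Myrf there were 10.8 ± 2.41 in cKO and 13.5 ± 2.64 in controls, again overlapping. These ratios share the contrast by which the genes were chosen and were not tested.

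**Figure D3:**
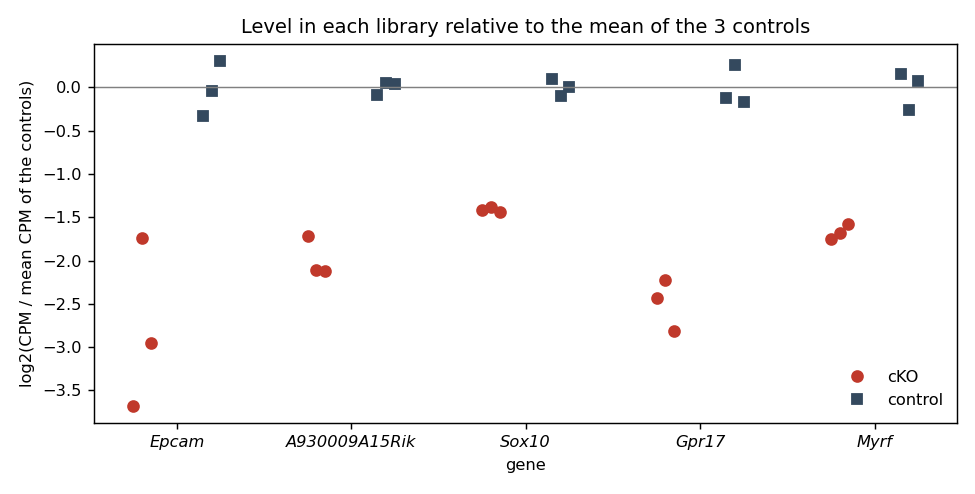
Level of Epcam, A930009A15Rik, Sox10, Gpr17 and Myrf in each library as log2 of its CPM over the mean CPM of the 3 controls, with cKO libraries as red circles left of control libraries as dark squares. The cKO points run from -3.67 to -1.74 for Epcam and from -2.12 to -1.72 for A930009A15Rik, while those of Sox10 lie between -1.44 and -1.38.

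Across the 6 libraries the log2 CPM of A930009A15Rik followed that of Sox10 with a Pearson r of 0.984 (Spearman rho 0.714), Gpr17 with 0.982 (0.886) and Myrf with 0.967 (0.543). For Epcam these values were 0.929 with Sox10, 0.939 with Gpr17 and 0.921 with Myrf (rho 0.771 each). In these genes the libraries fall into 2 separate clusters, the 2 groups. The coefficients therefore restate the group difference, and no relation across mice can be tested from them. Among 16937 other tested genes, Sox10, Gpr17 and Myrf ranked 7, 11 and 32 by their r with A930009A15Rik, and 87, 65 and 112 by their r with Epcam. Epcam and A930009A15Rik had r = 0.897 with each other.

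Within the groups no such likeness to Sox10, Gpr17 and Myrf, or between Epcam and A930009A15Rik, was seen. After each library's value was expressed as its deviation from the mean of its group, r over the 6 libraries was 0.02, 0.34 and 0.02 for Epcam with Sox10, Gpr17 and Myrf. For A930009A15Rik it was -0.30, 0.24 and -0.51, and between the 2 genes it was -0.55. Deviations of genes with so few reads hold much counting error, above all those of A930009A15Rik.

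The genes at or above 1 CPM with the highest r across the libraries were, for Epcam, Cyp2j6, a cytochrome P450 (r = 0.992), Nkx2-2, a transcription factor of oligodendrocyte precursors (0.992), and Polr2d, a subunit of RNA polymerase II (0.991). Nkx2-2 averaged 3.01 ± 0.680 CPM over 3 cKO mice and 6.28 ± 0.926 CPM over 3 controls (SD), which was not called (edgeR adjusted p = 0.0642). Cyp2j6 and Polr2d had log2 fold changes of -0.37 and -0.18 and were not called (edgeR adjusted p = 0.301 and 0.727). For A930009A15Rik they were 1700047M11Rik, another gene known by a clone name (0.997), Spa17, a sperm surface protein gene (0.989), and Leprot, a protein encoded at the leptin receptor locus (0.988). 1700047M11Rik fell to 0.523 ± 0.0699 CPM in cKO, against 2.51 ± 0.235 CPM in controls (edgeR adjusted p = 0.00267). Spa17 and Leprot had log2 fold changes of -0.62 and -0.08 (edgeR adjusted p = 0.655 and 0.883). As deviations from group means, r with Epcam was 0.958 for Cyp2j6, 0.944 for Nkx2-2 and 0.94 for Polr2d. With A930009A15Rik it was 0.827 for 1700047M11Rik, 0.482 for Spa17 and 0.863 for Leprot. These genes share the same 6 libraries and were picked from all tested genes by their r, so they serve as a description.

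Some genes of 4 oligodendrocyte lineage lists were called lower. By edgeR 4 of 20 tested precursor genes and 6 of 17 tested genes of newly formed oligodendrocytes were called lower. So were 8 of 28 tested myelin genes and 4 of 18 tested lineage transcription factors, with 0 called higher in each list. The log2 fold change was negative in 17, 16, 20 and 15 genes in that order of lists, beside 8500 of 16938 over all tested genes. An unadjusted edgeR p under 0.05 was found for 14, 14, 15 and 10 genes (6.27% of all tested genes). Of all tested genes 0.207% were called lower and 0.059% higher. Gpr17 is among the newly formed genes counted here and Sox10 and Myrf are 2 of the 4 factors, and these 3 genes were chosen with their fall known. DESeq2 called 7 precursor, 7 newly formed, 11 myelin and 7 factor genes lower and 0 higher. Limma-voom called 5, 7, 8 and 6 lower in the same order of lists, and 1 myelin gene higher. The median log2 fold changes by edgeR were -0.26, -0.49, -0.32 and -0.59, and 8 of the 28 myelin genes had a positive value. The summed level of the precursor list was 1098 to 1273 CPM in cKO and 1453 to 1487 CPM in controls, and that of the newly formed list was 821 to 848 CPM in cKO and 1162 to 1284 CPM in controls. The 1284 CPM belongs to control replicate 3. There Tcf7l2, which is also one of the thalamic genes, was at 143.5 CPM, against at most 36.1 CPM in any other library. The myelin list summed to 879 to 962.5 CPM in cKO and 1178 to 1374 CPM in controls, and the transcription factors to 700.2 to 762 CPM in cKO and 866 to 935 CPM in controls. No gene of these lists was at 0 in all libraries. The part of these lists in the level of Epcam and A930009A15Rik was not tested.

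No gene of a list of genes that work with EpCAM was called. The list held 27 genes, its adhesion partners, the proteases that cut it and their inhibitors, and the proteins its tail binds. Of 23 tested, 0 were called by edgeR (0.266% of all tested genes were called), 0 had an unadjusted p under 0.05 (6.27% of all tested genes did), and 0 were called by DESeq2, limma-voom or with any 1 library left out. The log2 fold change was negative in 14 and positive in 9, with a median of -0.04, beside 8500 of 16938 negative and a median of -0.00068 over all tested genes.

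Cldn7, the claudin that EpCAM binds, was below the edgeR filter on low counts, with 6, 5 and 14 counts in the cKO libraries, against 6, 15 and 7 in the controls. Cldn7 was named after its values were seen. Cldn3, a related claudin, had a log2 fold change of -0.50 with an interval from -1.04 to 0.04.

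The proteases and their inhibitors gave no call either. St14, the matriptase gene whose protein cleaves EpCAM, had 17, 16 and 18 counts in the cKO libraries, against 21, 22 and 24 in the controls. Its log2 fold change of -0.66 had a 95% confidence interval of -1.36 to 0.04 (edgeR adjusted p = 0.816). Spint2, an inhibitor of matriptase, had -0.31 (-0.76 to 0.14). Adam17, a sheddase, had 0.13 (-0.06 to 0.31), and Aph1b, a gamma-secretase subunit, had -0.14 (-0.33 to 0.05). Actn4, the alpha-actinin 4 gene of the cytoskeletal link, had 0.09 (-0.04 to 0.21).

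**Figure D4:**
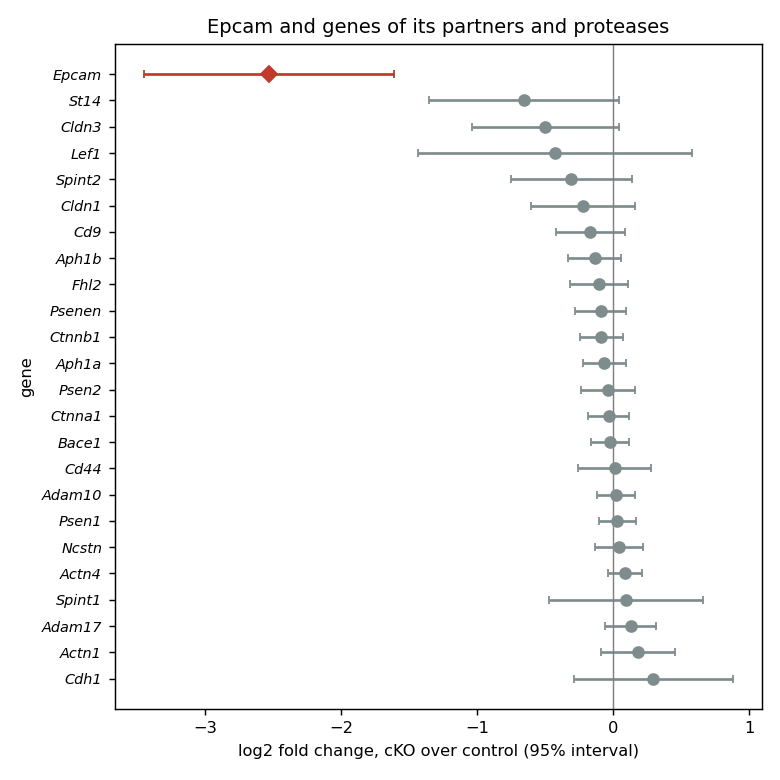
Log2 fold change of cKO over control with 95% confidence intervals for Epcam (red, top) and the 23 tested genes of its partners and proteases (grey), sorted by fold change. The intervals of all 23 grey genes include 0, and that of Epcam runs from -3.45 to -1.61.

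General epithelial markers were present at low levels and were not called. Of 27 general epithelial genes, 8 of which are also in the EpCAM list, 17 were tested and 0 called by edgeR, DESeq2 or limma-voom. By edgeR 0 had an unadjusted p under 0.05. Of all tested genes edgeR called 0.266%, and 6.27% had such a p, so few calls could come from 17 genes. Their median log2 fold change was -0.33, and 11 of 17 were negative, beside 8500 of 16938 over all tested genes. The summed level was 58.1 to 61.4 CPM in cKO and 59.7, 64.4 and 85.8 CPM in controls, highest in control replicate 3. Spint2 at 27.5 CPM and Grhl1, an epithelial transcription factor, at 11.0 CPM held the highest means. The keratin genes Krt5 and Krt14, looked up after the values were seen, had at most 2 counts in any cKO library and at most 7 in any control. Krt8, Krt18 and Krt19, keratin genes of the same list named likewise, had more counts and were tested. Krt8 had 11, 25 and 15 counts in the cKO libraries, against 14, 31 and 22 in the controls (log2 fold change -0.65). Krt18 had 19, 38 and 35 counts, against 30, 25 and 45 (-0.41). Krt19 had 13, 33 and 15 counts, against 19, 23 and 22 (-0.34).

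Choroid plexus genes, which mark the secretory epithelium of the ventricles, were not called. Of 17 tested 0 were called by edgeR, DESeq2 or limma-voom and 2 had an unadjusted p under 0.05 (6.27% of all tested genes did), with a median log2 fold change of 0.00160. The list summed to 863 to 941 CPM in cKO and 812 to 973 CPM in controls, led by Ttr, transthyretin, with a log2 fold change of 0.06 (-0.13 to 0.25), and Enpp2, autotaxin, with 0.00160 (-0.23 to 0.23). Of 11 tested genes of ependyma, the ciliated lining of the ventricles, 0 were called by edgeR, DESeq2 or limma-voom and 0 had an unadjusted p under 0.05. Over all tested genes these shares were 0.266% by edgeR and 6.27%. That list summed to 44.2 to 48.2 CPM in cKO and 44.9 to 53.0 CPM in controls, led by Foxj1, the regulator of motile cilia, with -0.02 (-0.25 to 0.22), and Ccdc153, with -0.31 (-0.62 to 0.00327).

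Pituitary genes were near 0. Gh, Prl, Cga and Lhb, which encode pituitary hormones or their subunits, had 0 counts in all 6 libraries. The list summed to 1.67 to 2.12 CPM in cKO and 1.39 to 3.47 CPM in controls. Its tested gene, Pomc, which hypothalamic neurons also express, had 26, 16 and 33 counts in the cKO libraries, against 15, 39 and 53 in the controls, and was not called by edgeR, DESeq2 or limma-voom. Tshb, the thyrotropin beta subunit gene, had 4, 8 and 10 counts in the cKO libraries, against 4, 9 and 17 in the controls, below the edgeR filter. The pituitary and general epithelial sums were both highest in control replicate 3. Without that library the log2 fold change of Epcam was -2.36 and that of A930009A15Rik was -1.97.

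Within 250 kb of Epcam on the chromosome, 2 tested genes are given here. Calm2, a calmodulin gene, had a log2 fold change of -0.02, with a 95% interval of -0.18 to 0.14. Kcnk12, a potassium channel gene, had -0.00 (-0.29 to 0.28). Neither was called (0 of 2 by edgeR, DESeq2 or limma-voom, and 0 of 2 at an unadjusted p under 0.05). Of all tested genes edgeR called 0.266%, and 6.27% had an unadjusted p under 0.05, so 2 genes say little about the neighbourhood.

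Lgr5, the gene around A930009A15Rik on the other strand, had 55, 98 and 96 counts in cKO replicates 1, 2 and 3, against 55, 121 and 59 in control replicates 1, 2 and 3. It averaged 3.34 ± 0.622 CPM over 3 cKO mice and 3.81 ± 1.54 CPM over 3 controls (SD), and the groups overlapped. Its log2 fold change of -0.19 had a 95% confidence interval of -0.78 to 0.40 (edgeR adjusted p = 0.937). In cKO replicates 1, 2 and 3 Lgr5 was at 2.71, 3.96 and 3.34 CPM, and A930009A15Rik at 0.691, 0.525 and 0.522 CPM. In control replicates 1, 2 and 3 Lgr5 was at 3.18, 5.57 and 2.69 CPM, and A930009A15Rik at 2.14, 2.35 and 2.33 CPM. Unspliced Lgr5 RNA could add reads to A930009A15Rik if strand was ignored in counting, which was not tested.

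The other tested genes within 250 kb of A930009A15Rik were Zfc3h1, a nuclear RNA decay factor, with a log2 fold change of 0.20 (0.06 to 0.35), Thap2, a zinc finger gene, with 0.27 (-0.07 to 0.61), and Tmem19, a transmembrane protein gene, with 0.03 (-0.13 to 0.19). With Lgr5 these were 4 tested genes, of which 0 were called by edgeR, DESeq2 or limma-voom and 1, Zfc3h1, had an unadjusted p under 0.05. The shares over all tested genes were 0.266% called by edgeR and 6.27% at an unadjusted p under 0.05. Tspan8, a tetraspanin that EpCAM binds and that lies 234 kb from the end of A930009A15Rik, was below the edgeR filter on low counts, with 8, 16 and 4 counts in the cKO libraries, against 2, 4 and 7 in the controls.

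**Figure D5:**
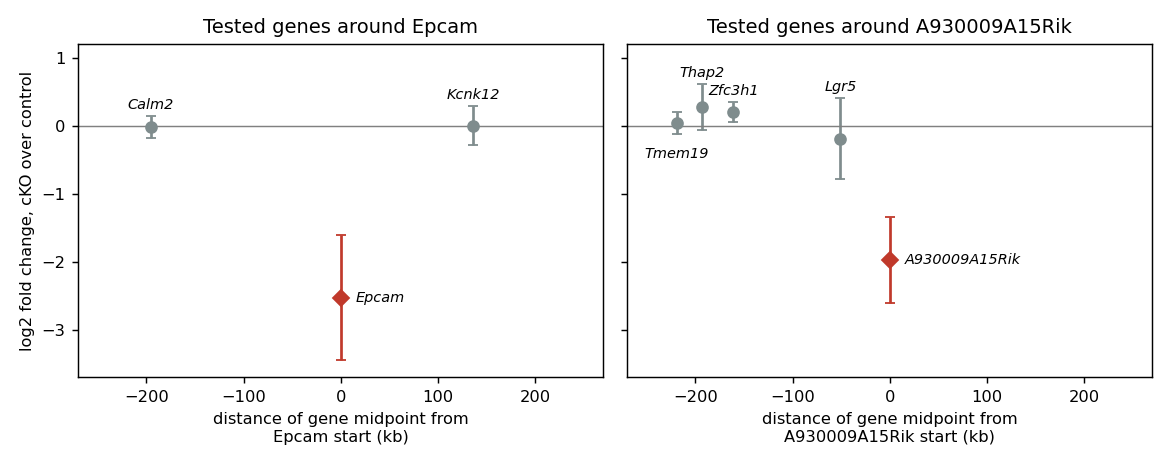
Log2 fold change of cKO over control, with 95% confidence intervals, of tested genes within 250 kb of Epcam (left) and A930009A15Rik (right), against the distance of each gene's midpoint from the start of Epcam or A930009A15Rik in kb. The 6 neighbours (grey) lie between -0.19 and 0.27, and Epcam and A930009A15Rik (red diamonds) at -2.53 and -1.98.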

How the data were processed

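Per the labels' protocols, poly-T beads took messenger RNA from 6 forebrains, and a strand-marking (directional) kit turned it into libraries. The authors deposited whole-number read counts per Ensembl gene, and FPKM values that equal the deposited count divided by the library total and 1 fixed length per gene. The submitters' processing notes list CASAVA, STAR 2.5, HTSeq 0.6.1 and DESeq 2.1.6.3 with the build mm10 and give no roles, and the strand setting is not given in the sources used here. Total counts per library ran from 17262042 to 29310193, and low counts limit the precision of Epcam and A930009A15Rik.

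Names and coordinates came from GENCODE M21, which matched 34490 of 35275 identifiers. Counts were filtered by filterByExpr (minimum count 10, minimum total 15), leaving 16938 genes, and scaled by TMM. The groups were compared by the two-sided quasi-likelihood test of edgeR 4.0.16 in R 4.3.3, with robust dispersion and Benjamini-Hochberg adjustment over all tested genes. Called means an adjusted p under 0.05. Likeness used log2 CPM with a prior count of 2. Intervals on counts were exact Poisson, and those on pooled ratios exact binomial, both at 95%. DESeq2 1.42.0 and limma 3.58.1 were run as alternatives, and edgeR was tested on simulated data. Every pair of libraries differed beyond sampling noise (chi-square per degree of freedom from 4.31 to 24). Beyond genotype and replicate number, nothing in the labels says more of how the mice differ than that they are littermates.

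The members, gene lists and tests were chosen with earlier results of these data known. Named genes were Epcam, A930009A15Rik, Sox10, Gpr17 and Myrf, the 3 genes of at least 1 CPM most like each member, the 6 EpCAM partner genes with the smallest p, the 2 highest genes of each epithelial list, the tested neighbours within 250 kb, and the called lower genes at or below the level of A930009A15Rik. Others were named after their values were seen. Some genes that the rule or the lists take are not reported here and are left out of the counts given for these lists.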

Additional observations from a re-analysis of the deposited data

How the results depend on the processing

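The log2 fold change of Epcam and of A930009A15Rik stayed negative under all 18 alternatives run on each. Epcam kept its call under 9 of them. It lost it in edgeR without robust dispersion (-2.53, adjusted p = 0.0533), in limma on log2(FPKM + 1) (-0.74) and on log2(FPKM + 0.1) with and without a filter on the mean (-2.07 both). A pseudocount lowers the fold of low genes by construction, and the cause of the lost calls was not tested. With each replicate left out in turn it ran from -3.20 to -2.24. A930009A15Rik kept its call under 15 alternatives, log2(FPKM + 1) among them at -1.05, and with each replicate left out it ran from -2.11 to -1.91.

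Same-numbered libraries of the 2 groups deviated from their group means with correlations of -0.00148, -0.0621 and -0.0172. Those of differently numbered libraries ran from -0.0794 to 0.109. With 3 libraries per group these correlations cannot decide whether the samples were paired. With the replicate number as a block, Epcam was at -2.585 (adjusted p = 0.0761) and A930009A15Rik at -1.98 (0.0591), and 27 genes were called lower and 5 higher.

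Over all genes, 35 were called lower and 10 higher. These counts were 61 and 50 with no filter, 59 and 49 by DESeq2, 28 and 6 without robust dispersion, 20 and 4 on either FPKM scale with a filter, and 19 and 4 on FPKM without one; the cause was not tested. With each replicate left out they ran from 24 to 44 lower and from 4 to 19 higher. The r with Sox10, Gpr17 and Myrf moved by at most 0.1 under the other prior counts and with any library left out.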

Other observations

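Many genes of the lists above, Tcf7l2 and Slc17a6 among them, had their highest counts in control replicate 3, and 2 more are given here. Hdc, the histamine-synthesis gene of hypothalamic neurons and mast cells, had 166 counts there and at most 90 in any other library, and Lef1, a nuclear partner of beta-catenin that thalamic neurons express, had 319 counts there and at most 202 elsewhere. Of the choroid plexus genes, Calml4, a calmodulin-like gene, had 32, 51 and 40 counts in the cKO libraries, against 13, 23 and 17 in the controls (log2 fold change 0.95, edgeR adjusted p = 0.551). These genes were picked after their values were seen.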
